A study of Rattus norvegicus with 6 samples.

Results

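The nuclear genes that encode subunits of the respiratory chain and of ATP synthase were examined in cells grown out of rat amniotic fluid. Members were the rows of the deposited table whose symbol is that of a subunit of complex I (Nduf genes), complex II (Sdh genes), complex III (Uqcr genes and Cyc1), complex IV (Cox4 to Cox8 genes) or ATP synthase, here called complex V (Atp5 genes). This name rule found 84 of the 22085 genes, with 40 in complex I, 4 in complex II, 9 in complex III, 15 in complex IV and 16 in complex V. Of these, 81 passed the filter on low counts and were tested. Cox6a2, Cox6b2 and the row named Ndufs6 did not pass.

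The study compared 3 libraries from control pregnancies with 3 from pregnancies labelled as a preeclampsia model. Preeclampsia is a condition in which the mother's blood pressure rises during pregnancy. Amniotic fluid was taken on embryonic day 18.5, and the cells of both groups were grown in the same serum-containing medium and collected at passage 4. How the model was induced, the rat strain and the age of the dams are not given in the sources used here, nor is the number of animals or fetuses behind each library, so p-values measure the spread between these libraries. Libraries held 48402185 to 59193961 counts. The labels call the cells mesenchymal stem cells. Mesenchymal markers such as Thy1 and Vim summed to 4038 to 5925 FPKM (read counts scaled by transcript length and library size) in the control libraries and 5439 to 7306 in the preeclampsia libraries. The 12 macrophage markers summed to 20.2 to 137 and 25.0 to 386 FPKM, and the red blood cell genes to at most 0.17 FPKM. The 6 epithelial markers in the table summed to 4.11 to 55.9 FPKM in the control and 0.45 to 1.56 in the preeclampsia libraries, and the 5 endothelial markers to 0.69 to 2.35 and 0.51 to 3.74.

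The respiratory chain sits in the inner mitochondrial membrane. Complexes I and II pass electrons from NADH and succinate to ubiquinone, complex III passes them on to cytochrome c, and complex IV reduces oxygen. Complexes I, III and IV pump protons, and ATP synthase uses the gradient to make ATP. A few subunits of complexes I, III, IV and V come from the mitochondrial genome, and all others, with the whole of complex II, from nuclear genes. Many core subunits carry flavins, iron-sulfur clusters, hemes or catalytic sites. The core label used here also covers Ndufs3, Uqcrc1, Uqcrc2 and Atp5f1c. Apart from alternative forms and copies, all other members are called accessory. These include working parts of ATP synthase, such as Atp5po and the Atp5mc genes.

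Subunit messenger RNAs stood slightly higher in the preeclampsia group in all 5 complexes, by an amount about equal to the spread between libraries of a group. Of the 81 tested genes, 70 had a log2 fold change (preeclampsia over control) above 0, where 51.7% of all 15776 genes tested did. The median log2 fold change was 0.13, or 9.12% above control, against 0.01 over all genes tested. By complex the median was 0.13 in I, 0.14 in II, 0.11 in III, 0.13 in IV and 0.15 in V. The genes above 0 were 34 of 39, 3 of 4, 6 of 9, 12 of 13 and 15 of 16 in that order. At an adjusted p under 0.05, edgeR called 0 of the subunit genes and 0% of all genes tested. In bulk RNA, fewer cells of a type and less RNA per cell cannot be told apart. DESeq2 called 0 of them, against 1.71% of the genes it tested. An unadjusted p under 0.05 was found for 2 of 81, Ndufa11 and Ndufa4l2, where 9.19% of all genes had one. The FPKM of the groups did not overlap in 8 of the 81, against 14.5% of all genes. Of these 8, 7 were higher and 1 was lower in the preeclampsia group, where 971 and 1312 of the 15776 genes were. The direction thus was shared by most members. The share with separated groups or a small p, counted in either direction, lay below that of the whole table.

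**Figure D1:**
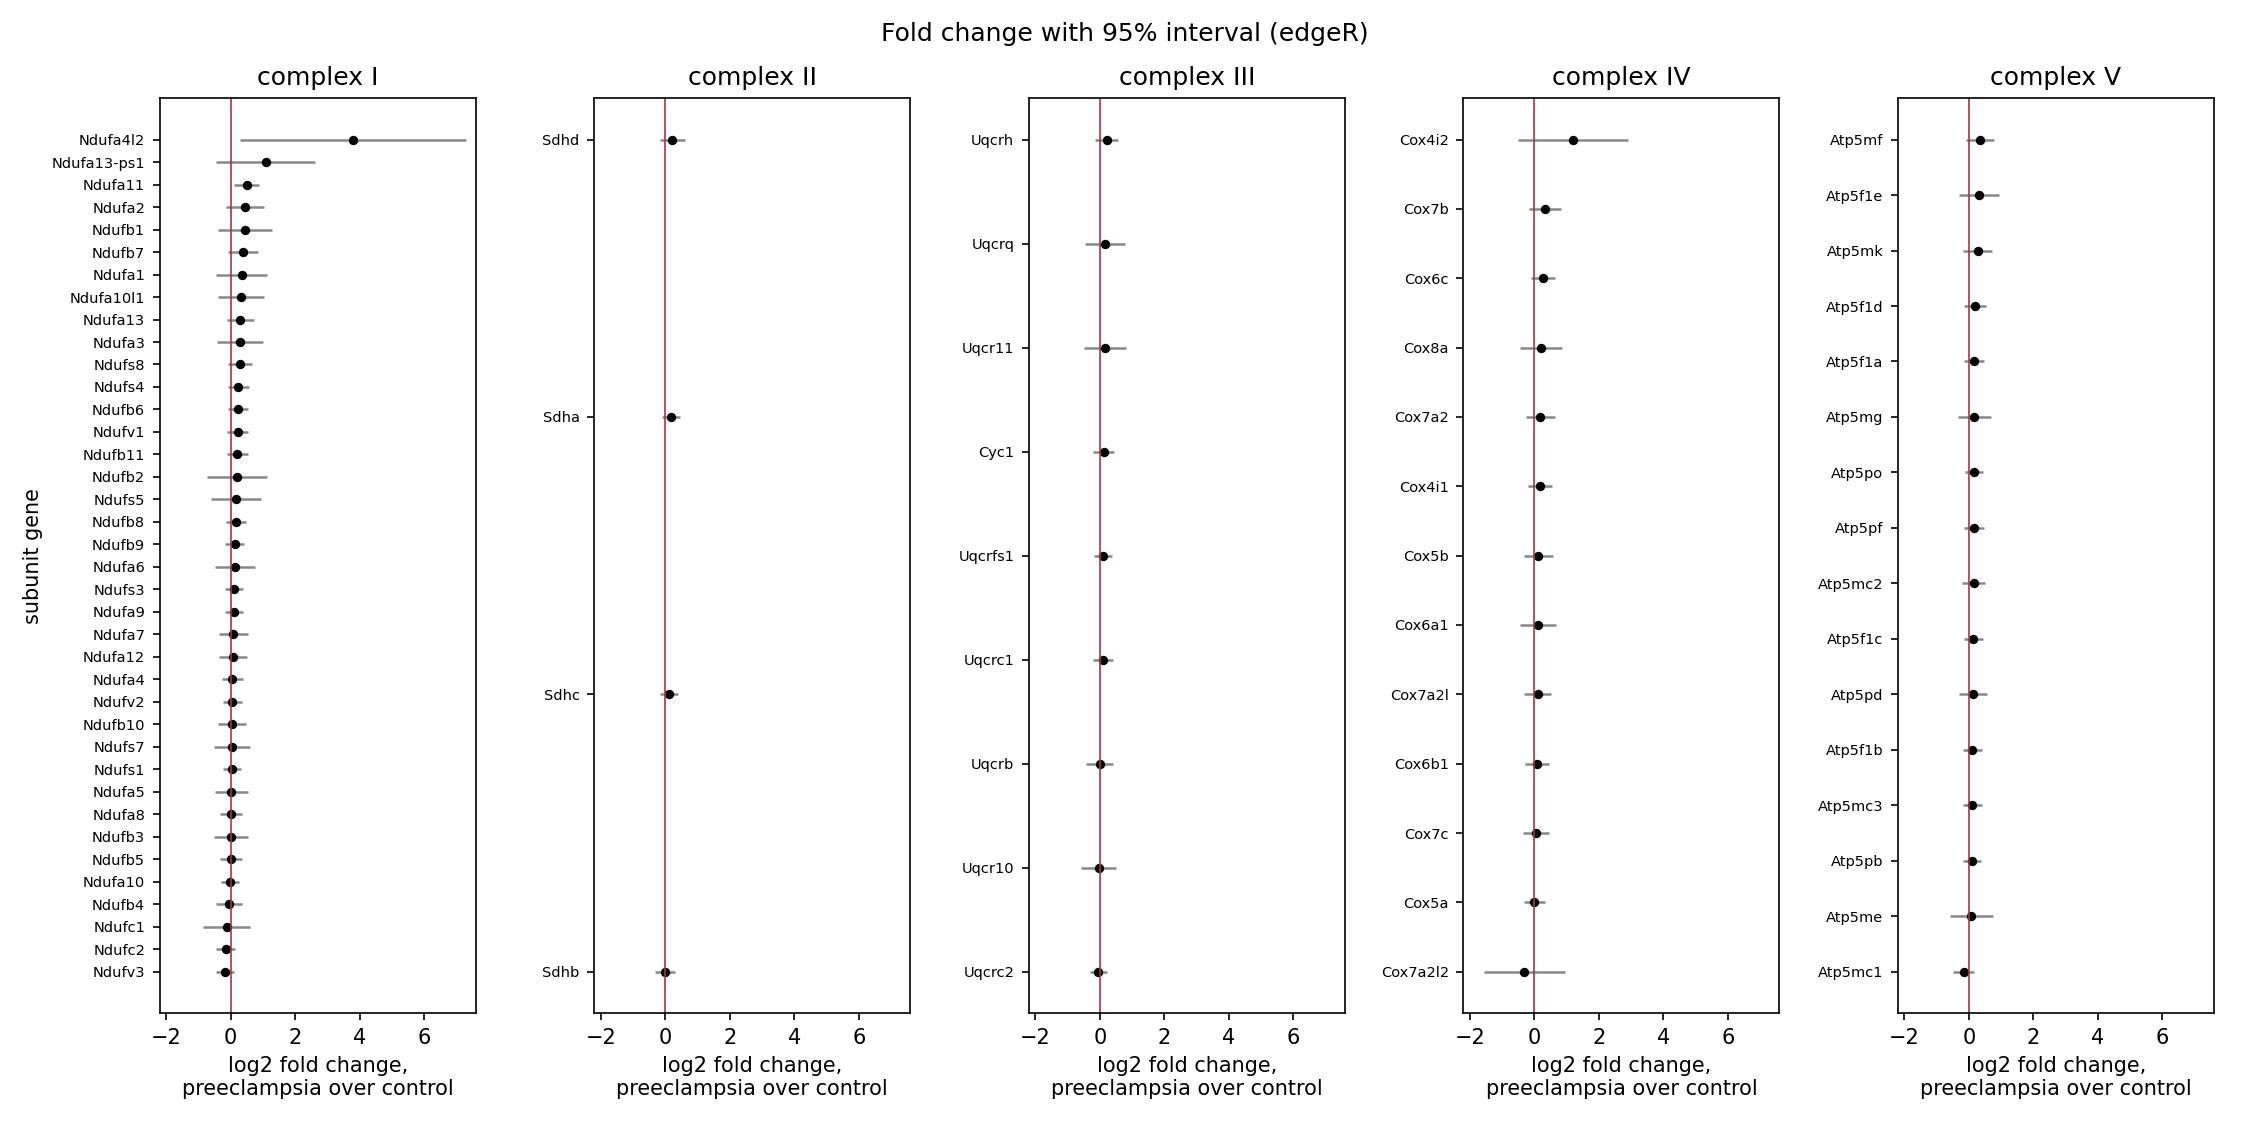
Log2 fold change of preeclampsia over control (horizontal axis) for 80 of the 81 tested subunit genes (vertical axis), in 1 panel per complex; points are edgeR estimates and lines their 95% intervals. Most points lie just right of 0, the intervals of all but 2 genes, Ndufa11 and Ndufa4l2, reach 0, and Ndufa4l2 has the widest interval, 0.29 to 7.30.

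Most of these changes were bounded within 2-fold, a wide range beside the median change of 9.12%. The 95% interval of the fold change lay within 2-fold in either direction for 71 of the 81 genes, and within 1.5-fold for 51. It lay above 0 for Ndufa11 and Ndufa4l2, before any adjustment for the number of genes. The median standard error was 0.16 for the subunit genes and 0.26 for all genes tested. The 10 genes with wider intervals were Cox4i2, Cox7a2l2, Ndufa1, Ndufa10l1, Ndufa13-ps1, Ndufa2, Ndufa3, Ndufa4l2, Ndufb1 and Ndufb2.

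Libraries of a group differed about as much as the groups did, with a pooled SD of 0.13 for the library medians of the subunit genes. On the log2 scale of CPM (counts scaled by library size) with TMM factors (trimmed mean of M-values), each gene was set against its own mean over the 6 libraries. The median subunit gene then stood at -0.16, -0.13 and 0.08 in control libraries 1, 2 and 3 and at -0.02, 0.21 and 0.01 in preeclampsia libraries 1, 2 and 3. Control library 3 was thus above preeclampsia libraries 1 and 3, and the groups overlapped. Preeclampsia library 2 was the highest library for 55 of the 81 genes, and control libraries 1 and 2 the lowest for 31 and 26. On the FPKM scale, which follows library totals, preeclampsia library 2 was highest for 35 genes and control library 3 for 25. Over all genes tested the library medians lay between -0.01 and 0.02 on the TMM scale. Without preeclampsia library 2 the median log2 fold change was 0.05, with 54 of the 82 genes then tested above 0. Without control library 3 it was 0.21, with 77 of 82 above 0. The summed macrophage markers were 137, 113 and 20.2 FPKM in the control libraries and 25.0, 386 and 187 in the preeclampsia libraries, and 12 G2 and M phase genes summed to 165, 224 and 91.6 and to 447, 91.2 and 94.0. Macrophage genes were thus highest in the same library as the subunit genes and lowest in control library 3, where subunit genes were second highest. Epithelial markers, at 4.11, 55.9 and 12.8 FPKM in the control and 0.45, 1.56 and 1.52 in the preeclampsia libraries, were the one marker list whose summed levels did not overlap between the groups. The part of these cell types and of the cell cycle in the subunit result was not tested.

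**Figure D2:**
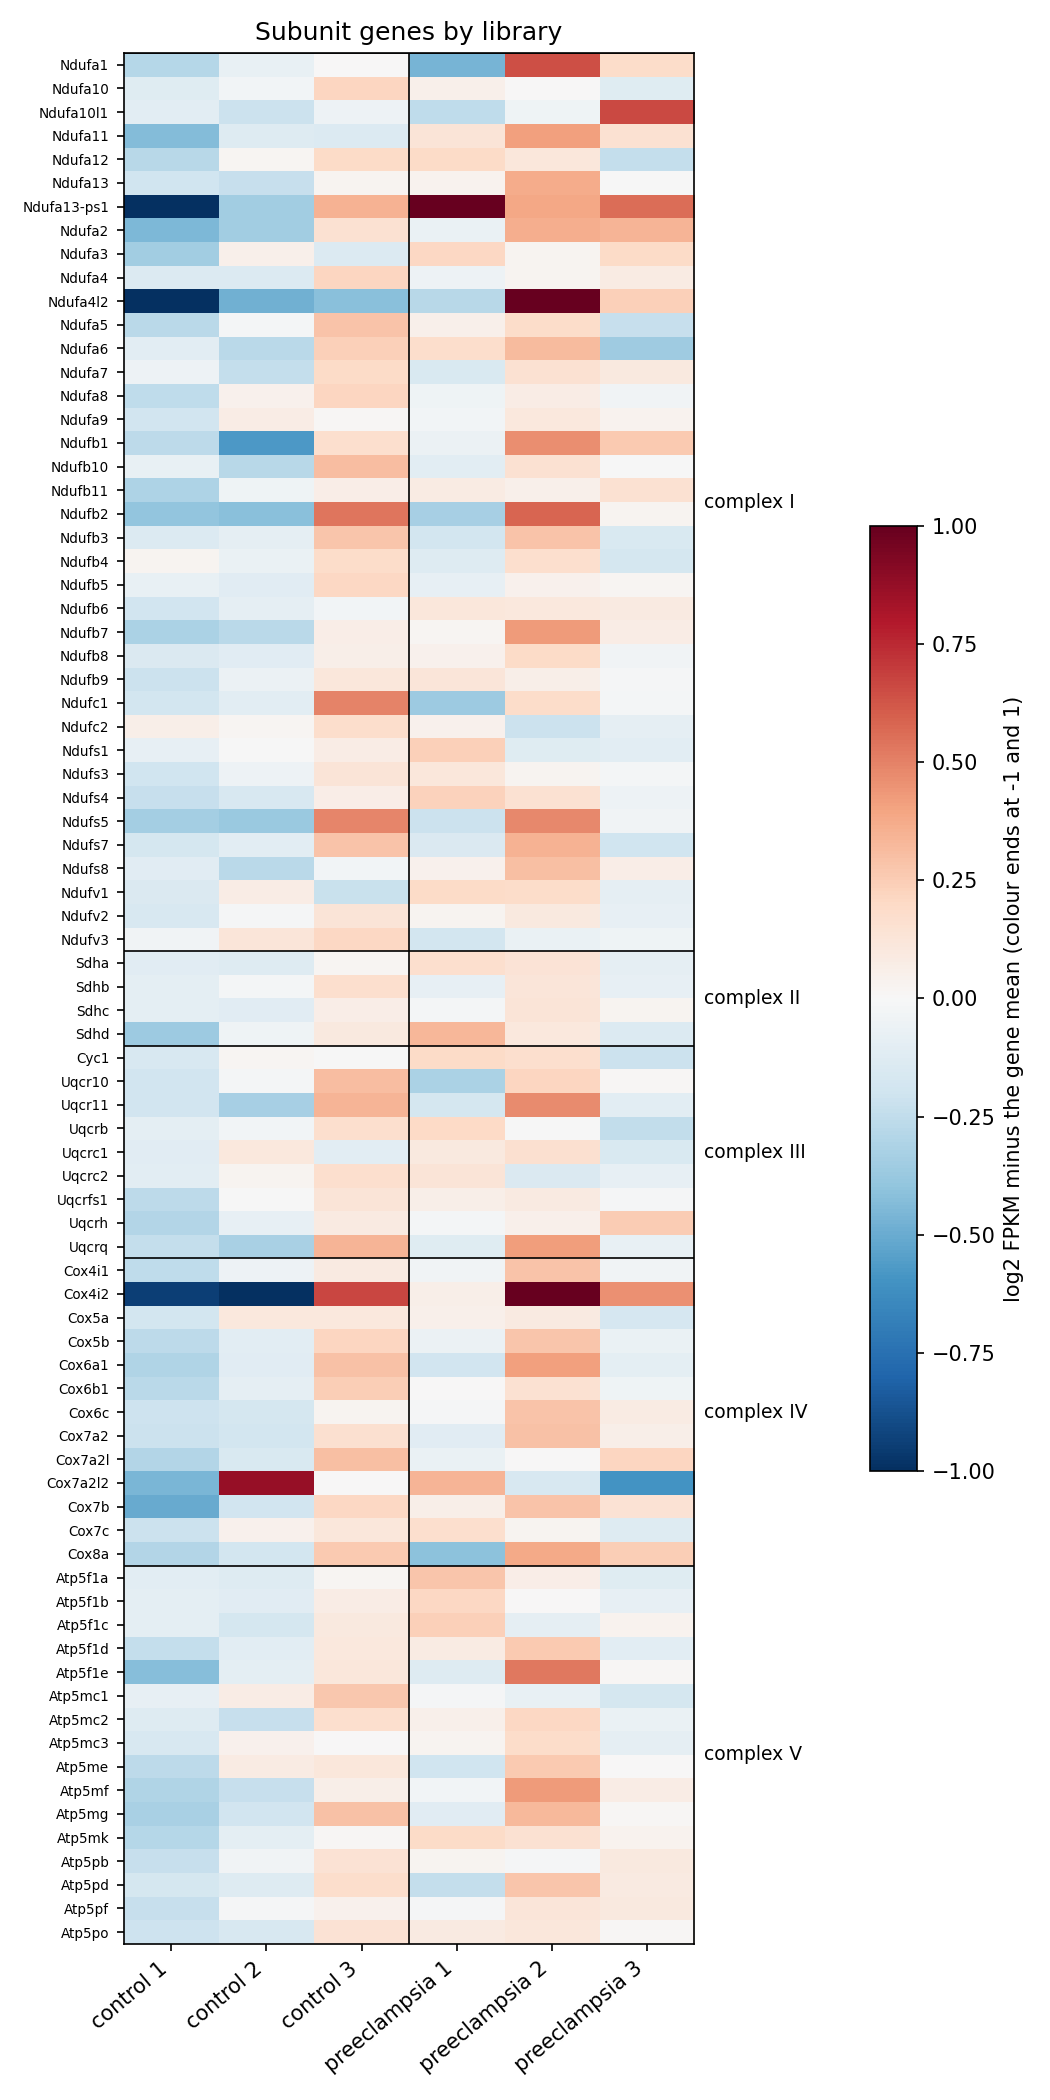
Log2 FPKM of 80 of the 81 tested subunit genes, each minus its mean over the 6 libraries (colour), with genes in rows by complex and libraries in columns. Control libraries 1 and 2 are mostly blue (lower), and control library 3 and preeclampsia library 2 mostly red (higher); the 3 control columns do not share 1 colour.

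Core and accessory subunits are given apart, a grouping made after the values were seen and not tested. The 18 core genes had medians of -0.06, -0.07 and 0.02 in the control libraries and 0.10, 0.16 and -0.06 in the preeclampsia libraries. For the 58 accessory genes these were -0.18, -0.13 and 0.11, and -0.07, 0.24 and 0.02. Preeclampsia library 1 was thus above control library 3 for core genes and below it for accessory genes. It was the highest library for 6 of 18 core genes and 2 of 58 accessory genes. Between the groups, the median log2 fold change was 0.11 for core and 0.14 for accessory genes.

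Promoters were searched for motifs of factors known for respiratory genes, since most members had the same sign of change. NRF1, the GABP factors of the ETS family and YY1 are regulators of many nuclear genes for mitochondrial proteins. RefSeq windows (GRCr8, 250 bases before to 50 after the start) matched 71 of the 84 genes. On either strand, the 11-letter YY1 motif in capitals below was in 7 of 71 windows (9.86%), against 0.675% of all 33469 windows and 0.966% of those of protein-coding genes. The 10-letter NRF1 motif in capitals below was in 4 (5.63%), against 0.852% and 1.08%. The ETS motif CCGGAAG was in 21 (29.6%), against 8.75% and 10.7%, and overlapped neither of the other motifs. In all, 29 of the 71 windows held at least 1 of these. Median log2 fold changes with and without a motif were 0.12 and 0.13 for YY1, 0.15 and 0.12 for NRF1, and 0.17 and 0.10 for ETS, given as a description. A match describes the letters only.

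The YY1 motif lay on the gene's own strand in all 7 windows that held it and began between -1 and 26 bases from the start, so these windows are shown aligned on it, 5′ to 3′, with the motif in capitals. They lie at chr18:28631835-28631873, chr7:115750277-115750317, chr4:161374135-161374175, chr1:253362890-253362930, chr2:47794885-47794925 and chr7:10110469-10110509 on the minus strand and chr8:118468207-118468247 on the plus strand of GRCr8.
Ndufa2: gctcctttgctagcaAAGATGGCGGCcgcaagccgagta
Ndufa6: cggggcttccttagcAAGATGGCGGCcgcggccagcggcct
Ndufa9: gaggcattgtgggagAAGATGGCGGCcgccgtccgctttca
Ndufb8: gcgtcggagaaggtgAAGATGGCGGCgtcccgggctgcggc
Ndufs4: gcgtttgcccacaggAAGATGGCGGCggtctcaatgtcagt
Ndufs7: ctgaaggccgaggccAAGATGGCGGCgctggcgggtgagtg
Uqcrc1: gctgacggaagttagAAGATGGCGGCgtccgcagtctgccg

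The NRF1 motif began 97 to 56 bases before the start in the 4 windows that held it. They are shown because they include Ndufa11, the subunit gene with the smallest p, and 3 genes of ATP synthase. The stretches lie at chr7:135678245-135678294 and chr11:44657513-44657562 on the minus strand and chr14:1464764-1464813 on the plus strand of GRCr8. For Ndufa11 the whole window, chr9:1637364-1637663 on the plus strand, is given, with the first of 2 overlapping motif copies in capitals.
Atp5mc2: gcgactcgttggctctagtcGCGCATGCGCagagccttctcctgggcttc
Atp5me: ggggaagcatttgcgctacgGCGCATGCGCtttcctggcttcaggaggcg
Atp5po: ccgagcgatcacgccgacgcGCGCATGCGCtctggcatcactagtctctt
Ndufa11: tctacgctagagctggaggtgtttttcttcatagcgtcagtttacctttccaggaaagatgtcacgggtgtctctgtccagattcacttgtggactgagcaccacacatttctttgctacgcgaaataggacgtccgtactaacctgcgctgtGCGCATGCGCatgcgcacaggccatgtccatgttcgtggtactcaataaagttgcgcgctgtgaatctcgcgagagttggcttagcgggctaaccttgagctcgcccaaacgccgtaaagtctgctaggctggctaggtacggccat

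The 2 genes with the smallest p both carry Nduf names, which the name rule places with complex I, the NADH dehydrogenase. They were Ndufa11 and Ndufa4l2, a paralog of Ndufa4 described with the alternative forms. Ndufa11, an accessory subunit of the membrane arm whose NRF1 window is shown above, was at 31.7, 38.99 and 38.97 FPKM in the control libraries and 46.8, 56.9 and 47.5 in the preeclampsia libraries. The groups did not overlap, with a log2 fold change of 0.49 (SE 0.16, adjusted p = 0.473). It lies on chromosome 9, 1550487 to 1554546 in the table's coordinates, which are not those of GRCr8. DESeq2 gave an adjusted p = 0.227. Without preeclampsia library 2 its log2 fold change was 0.37.

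Among the core subunits of complex I, Ndufs8, an iron-sulfur subunit, was at 15.5, 13.9 and 16.4 FPKM in the control libraries and 17.2, 20.6 and 17.5 in the preeclampsia libraries. Its groups did not overlap, and the log2 fold change of 0.29 (SE 0.15, adjusted p = 0.634) was not a call. Ndufv1, which binds NADH and the flavin, was at 36.4, 42.4 and 34.4 FPKM in the control libraries and 46.03, 45.7 and 37.9 in the preeclampsia libraries. Here control library 2 lay above preeclampsia library 3, and the log2 fold change was 0.21 (SE 0.14, adjusted p = 0.712). Ndufs1, the largest iron-sulfur subunit, was at 33.1, 35.1 and 37.04 FPKM in the control libraries and 41.4, 32.2 and 32.7 in the preeclampsia libraries. Preeclampsia library 1 alone was high, and the log2 fold change of 0.03 (SE 0.11, adjusted p = 0.956) had a 95% interval of -0.24 to 0.31. The other core genes Ndufv2, Ndufs3 and Ndufs7 had log2 fold changes of 0.05, 0.10 and 0.04.

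Accessory subunits of complex I ran from Ndufv3, the lowest, to Ndufa11. Ndufv3 was at 24.7, 27.6 and 29.2 FPKM in the control libraries and 22.4, 24.2 and 24.5 in the preeclampsia libraries. It was the one tested subunit gene whose preeclampsia libraries were all below its control libraries, with a log2 fold change of -0.17 (SE 0.12, adjusted p = 0.725). Ndufb6, a membrane arm subunit, was at 20.7, 22.2 and 23.2 FPKM in the control libraries and 25.7, 25.5 and 25.1 in the preeclampsia libraries. Its preeclampsia libraries lay close together and above all controls (log2 fold change 0.23). Ndufb2 and Ndufs5 showed the library pattern more than the group: Ndufb2 was at 8.03, 7.89 and 15.2 FPKM in the control libraries and 8.38, 15.7 and 10.7 in the preeclampsia libraries. In this gene control library 3 and preeclampsia library 2 stood apart from the other 4. Ndufs5 was at 12.7, 12.5 and 22.6 FPKM in the control libraries and 13.9, 22.5 and 15.8 in the preeclampsia libraries, with the same libraries high. Their log2 fold changes were 0.20 and 0.16. Ndufc2 (-0.16), Ndufc1 (-0.12), Ndufb4 (-0.06) and Ndufa10 (-0.03) were the other genes of the complex with a log2 fold change below 0.

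Complex II, succinate dehydrogenase, links the tricarboxylic acid cycle to the chain. Sdha, the flavoprotein that oxidizes succinate, was at 73.8, 72.97 and 80.7 FPKM in the control libraries and 89.7, 87.9 and 74.9 in the preeclampsia libraries. The groups overlapped through preeclampsia library 3, with a log2 fold change of 0.17 (SE 0.11, adjusted p = 0.721). Sdhb, the iron-sulfur subunit, was at 23.5, 24.8 and 28.3 FPKM in the control libraries and 23.8, 27.3 and 23.8 in the preeclampsia libraries. The preeclampsia range lay inside the control range, and the 95% interval of its log2 fold change was -0.32 to 0.30. Sdhc, a membrane anchor, was at 32.1, 31.9 and 36.1 FPKM in the control libraries and 33.9, 37.6 and 35.1 in the preeclampsia libraries, with a log2 fold change of 0.11 (SE 0.11, adjusted p = 0.824). Sdhd, the other anchor, was at 9.73, 12.2 and 13.4 FPKM in the control libraries and 15.8, 13.5 and 11.4 in the preeclampsia libraries. Preeclampsia library 1 was the highest and control library 1 the lowest, with a log2 fold change of 0.22 (SE 0.16, adjusted p = 0.748). Thus the 4 genes of this complex, none encoded in the mitochondrial genome, had intervals reaching at most 0.60.

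Complex III takes electrons from ubiquinol. Uqcrfs1, the Rieske iron-sulfur protein, was at 47.2, 56.2 and 61.8 FPKM in the control libraries and 58.98, 60.1 and 55.9 in the preeclampsia libraries, with a log2 fold change of 0.11 (SE 0.12, adjusted p = 0.845). Cyc1, cytochrome c1, was at 15.7, 17.8 and 17.6 FPKM in the control libraries and 20.1, 19.7 and 15.1 in the preeclampsia libraries, with a log2 fold change of 0.12 (SE 0.14, adjusted p = 0.845). Control library 3 was the highest for Uqcrfs1, and preeclampsia library 3 the lowest for Cyc1. Uqcrc1, a core protein, was at 21.6, 25.2 and 21.8 FPKM in the control libraries and 25.1, 26.2 and 21.01 in the preeclampsia libraries (log2 fold change 0.10), and Uqcrc2, its partner, at 28.4, 31.2 and 34.2 FPKM in the control libraries and 33.3, 27.7 and 28.9 in the preeclampsia libraries. Uqcrc2 had the lowest log2 fold change of the complex, -0.04 (SE 0.11, adjusted p = 0.932). Uqcrh, the hinge protein, was at 6.66, 7.69 and 8.68 FPKM in the control libraries and 8.04, 8.42 and 9.74 in the preeclampsia libraries. It had the smallest p and the highest log2 fold change of the complex, 0.21 (SE 0.15, adjusted p = 0.736). Control library 3 overlapped its preeclampsia libraries.

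Complex IV, cytochrome c oxidase, has its catalytic subunits encoded in the mitochondrial genome, so its nuclear members are accessory. Cox4i1, the widely expressed form of subunit 4, was at 34.95, 40.2 and 44.5 FPKM in the control libraries and 40.8, 50.96 and 40.6 in the preeclampsia libraries, with a log2 fold change of 0.17 (SE 0.15, adjusted p = 0.796). Cox5a was at 39.5, 48.4 and 48.4 FPKM in the control libraries and 46.5, 47.8 and 40.02 in the preeclampsia libraries. Its groups shared their range, and its log2 fold change was 0.00 (SE 0.13, adjusted p = 0.995). Cox6a1 was at 77.7, 88.8 and 117 FPKM in the control libraries and 84.1, 128 and 89.5 in the preeclampsia libraries. Control library 3 and preeclampsia library 2 stood above the other 4, and the log2 fold change of 0.12 became -0.12 without preeclampsia library 2. Cox7a2 was at 37.95, 38.9 and 49.2 FPKM in the control libraries and 40.8, 54.02 and 46.00 in the preeclampsia libraries, with a log2 fold change of 0.19 (SE 0.18, adjusted p = 0.824). Cox6c, which had the smallest p of the complex, was at 32.1, 32.9 and 37.9 FPKM in the control libraries and 36.8, 45.1 and 39.3 in the preeclampsia libraries. Control library 3 lay above preeclampsia library 1 here too, with a log2 fold change of 0.26 (SE 0.15, adjusted p = 0.676).

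ATP synthase was represented by 16 genes, of which 15 had a log2 fold change above 0. Atp5f1b, the catalytic beta subunit, had the highest FPKM of all members, at 406, 402 and 458 FPKM in the control libraries and 502, 434 and 409.6 in the preeclampsia libraries. Preeclampsia library 1 was highest and control library 3 second, with a log2 fold change of 0.11 (SE 0.12, adjusted p = 0.851). Atp5f1a, the alpha subunit, was at 76.9, 75.4 and 83.4 FPKM in the control libraries and 99.9, 86.2 and 75.8 in the preeclampsia libraries, with a log2 fold change of 0.17 (SE 0.13, adjusted p = 0.764). Atp5po, the stalk protein that confers sensitivity to oligomycin, was at 69.9, 72.4 and 89.3 FPKM in the control libraries and 86.1, 87.2 and 81.6 in the preeclampsia libraries. Control library 3 was its highest library, and the log2 fold change was 0.16 (SE 0.12, adjusted p = 0.760). Atp5mf, a membrane subunit, had the highest log2 fold change of the complex, at 26.3, 27.6 and 33.7 FPKM in the control libraries and 31.8, 43.4 and 34.1 in the preeclampsia libraries. Its groups overlapped by control library 3, with a log2 fold change of 0.35 (SE 0.18, adjusted p = 0.638). Atp5mk, a small membrane subunit, was at 11.7, 13.3 and 14.3 FPKM in the control libraries and 16.2, 15.8 and 14.6 in the preeclampsia libraries. It was the member of this complex whose groups did not overlap, at a log2 fold change of 0.27 (SE 0.18, adjusted p = 0.729).

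Subunit c, which forms the rotating ring of ATP synthase, is encoded by Atp5mc1, Atp5mc2 and Atp5mc3, whose products differ in their targeting sequences and yield the same mature protein. Atp5mc1 was at 34.8, 38.9 and 44.5 FPKM in the control libraries and 36.6, 35.1 and 32.7 in the preeclampsia libraries. It had the lowest log2 fold change in the complex, -0.16 (SE 0.13, adjusted p = 0.795). Atp5mc2 was at 133, 124 and 163 FPKM in the control libraries and 150.2, 168 and 139 in the preeclampsia libraries and Atp5mc3 at 68.7, 79.1 and 77.3 FPKM in the control libraries and 78.2, 87.3 and 72.3 in the preeclampsia libraries, with log2 fold changes of 0.15 and 0.10. As a share of the summed FPKM, Atp5mc1 made up 14.7%, 16.1% and 15.6% in the control libraries and 13.8%, 12.1% and 13.4% in the preeclampsia libraries. These shares did not overlap between the groups. The difference of -2.38 percentage points gave an exact two-sided permutation p = 0.1, the smallest that 3 against 3 can give, and an adjusted p = 0.25 over the 5 shares tested by that permutation test. Atp5mc2 made up 54.9% ± 3.21 and 57.2% ± 0.609 (SD, n = 3 each) and Atp5mc3 29.6% ± 2.82 and 29.7% ± 0.298. By counts in place of FPKM the shares of Atp5mc1 were 13.8% ± 0.539 and 11.7% ± 0.818.

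Alternative forms showed the widest range between libraries. Ndufa4l2, a hypoxia-induced paralog of Ndufa4, was at 0.220, 1.600 and 1.67 FPKM in the control libraries and 1.84, 42.01 and 2.63 in the preeclampsia libraries. A single library, preeclampsia 2, held 2980 counts where the other 5 held 14 to 153. The log2 fold change was 3.79 (SE 1.45, adjusted p = 0.513), and 0.96 without that library. DESeq2 gave it no adjusted p. Ndufa4, now placed with complex IV by structural work, was at 49.05, 49.2 and 62.7 FPKM in the control libraries and 51.97, 54.9 and 57.2 in the preeclampsia libraries, with a 95% interval of -0.27 to 0.38 on the log2 scale. Ndufa4l2 made up 43.4% of the FPKM of the pair in preeclampsia library 2 and 0.447% to 4.395% in the other 5. By counts it made up 53.3% and 0.712% to 6.43%. The FPKM shares did not overlap between the groups, at an exact permutation p = 0.1 (adjusted p = 0.25).

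**Figure D3:**
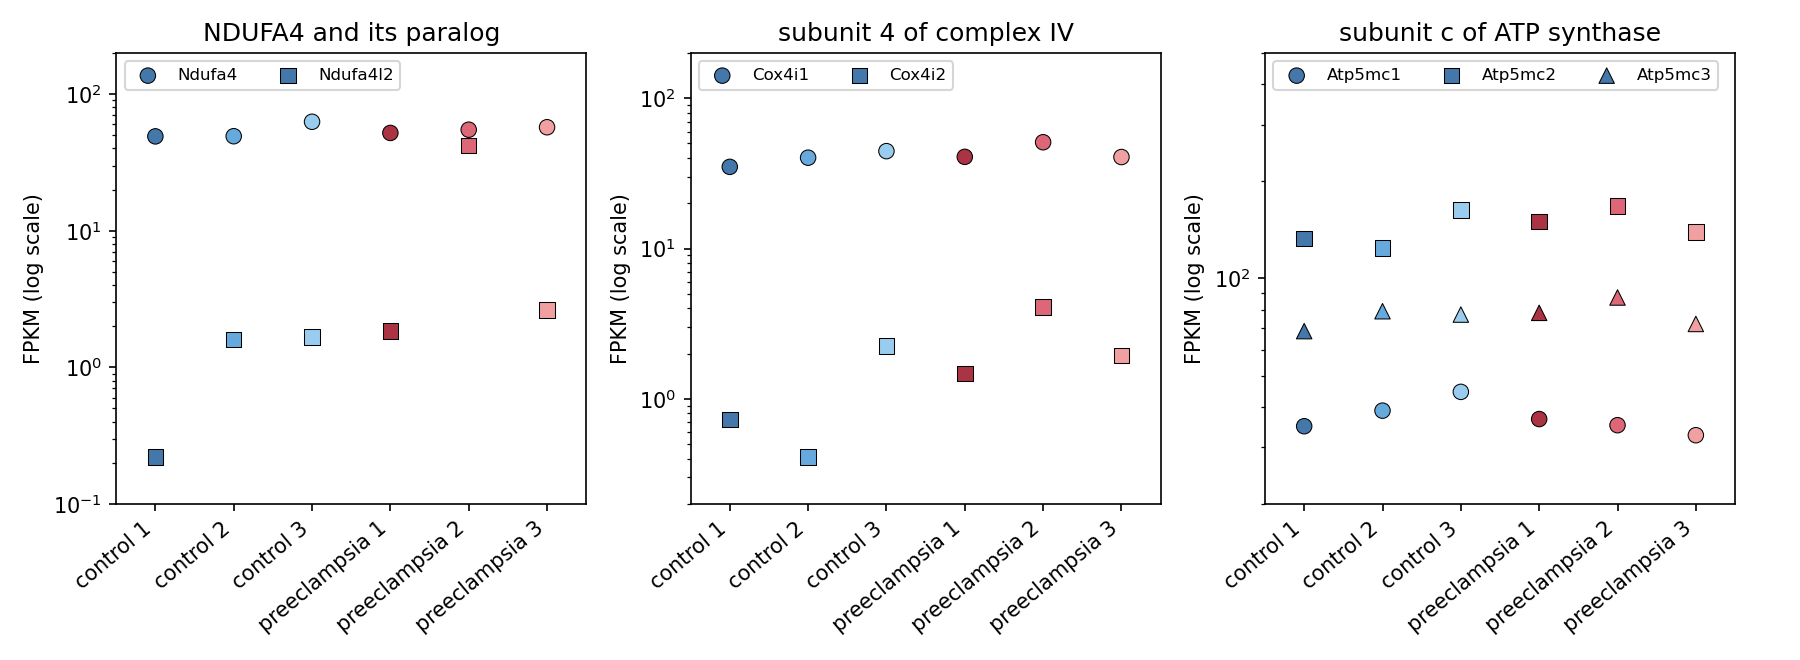
FPKM on a log axis of Ndufa4 and Ndufa4l2, of Cox4i1 and Cox4i2 and of the 3 subunit c genes in each of the 6 libraries; each marker is 1 library, blue for control and red for preeclampsia. Ndufa4l2 comes near Ndufa4 in preeclampsia library 2, at 42.0 against 54.9 FPKM, and is at most 2.63 FPKM in the other 5.

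Cox4i2, the form of subunit 4 known from lung and from low oxygen, was at 0.730, 0.410 and 2.25 FPKM in the control libraries and 1.47, 4.07 and 1.94 in the preeclampsia libraries. Control library 3 was above preeclampsia libraries 1 and 3, and preeclampsia library 2 was the highest. The log2 fold change was 1.198 (SE 0.70, adjusted p = 0.679), 2.14 without control library 3 and 0.62 without preeclampsia library 2. Its share of subunit 4 FPKM was 2.62% ± 1.97 in the control and 5.14% ± 2.02 in the preeclampsia group (exact permutation p = 0.3, adjusted p = 0.375). By counts in place of FPKM its share was 6.04% ± 4.39 and 11.6% ± 4.20, so the share depends on the lengths behind FPKM. Cox6a2, the heart and skeletal muscle form of subunit 6A, had 0 counts in all 6 libraries, which allows up to 0.051 to 0.062 CPM in a library by counting error alone (3 counts). The name rule found no row named Cox7a1, so that gene is not analysed here. Cox6b2, the testis form of 6B, had 8 counts in control library 1, 10 in preeclampsia library 2 and 0 in the other 4. The 8 striated muscle markers in the table summed to 6.45 to 23.3 FPKM in the control and 2.76 to 10.8 in the preeclampsia libraries.

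Some rows carry names of subunits but lie at small loci that resemble copies, and their reads may be shared with the parent genes. Ndufa13-ps1, named as a pseudogene, was at 0.190, 0.620 and 1.01 FPKM in the control libraries and 1.65, 1.04 and 1.17 in the preeclampsia libraries. The groups did not overlap, at 5 to 44 counts per library, and the log2 fold change was 1.08 (SE 0.64, adjusted p = 0.681). Ndufa13 itself was at 37.1, 36.4 and 43.5 FPKM in the control libraries and 43.8, 55.1 and 42.6 in the preeclampsia libraries, with a log2 fold change of 0.30. Cox7a2l2 was at 0.710, 1.79 and 0.980 FPKM in the control libraries and 1.24, 0.870 and 0.640 in the preeclampsia libraries and had the lowest log2 fold change of all members, -0.31 (SE 0.52, adjusted p = 0.903). Its sign turned, to 0.14, without control library 2. Ndufa10l1 was at 3.900, 3.63 and 4.05 FPKM in the control libraries and 3.53, 4.09 and 6.66 in the preeclampsia libraries, with preeclampsia library 3 alone high. The row named Ndufs6, at chromosome 2, 27201713 to 27202126, had 11 counts in control library 1, 20 in preeclampsia library 3 and 0 elsewhere. A row without such a symbol, LOC679739, is described in the table as the same iron-sulfur protein and held 182, 172 and 208 counts in the control libraries and 176, 309 and 189 in the preeclampsia libraries. That row, outside the name rule, had a log2 fold change of 0.21 (SE 0.27, adjusted p = 0.871).

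Other genes of the pathway were spread about 0, except for those of the mitochondrial genome. Of 54 assembly factors, which build the complexes without being part of them, 30 had a log2 fold change above 0, with a median of 0.01, and 0 were called by edgeR. The FPKM of the groups did not overlap in 4 of the 54 (7.41%), against 14.5% of all genes tested. By complex the medians were 0.03 for I (16 genes), 0.25 for II (4), -0.02 for III (6), 0.01 for IV (23) and -0.22 for ATP synthase (5). Higd1a, a hypoxia-induced factor of complex IV, had the smallest p of them, at 6.28, 9.01 and 9.61 FPKM in the control libraries and 16.2, 15.6 and 10.02 in the preeclampsia libraries. Its groups did not overlap, though preeclampsia library 3 lay just above control library 3, and the log2 fold change was 0.77 (SE 0.24, adjusted p = 0.470). Coa7, a second factor of complex IV, stood at 1.43 ± 0.121 and 1.86 ± 0.233 FPKM (mean ± SD, n = 3 each, control first), and Cox20, the most abundant by FPKM, at 28.7 ± 0.668 and 34.5 ± 7.96 FPKM. Sdhaf2, which helps to insert the flavin into Sdha, was at 5.32, 5.46 and 6.100 FPKM in the control libraries and 4.97, 4.07 and 4.700 in the preeclampsia libraries. Its preeclampsia libraries were all below its control libraries, with a log2 fold change of -0.28 (SE 0.11, adjusted p = 0.513). Sdhaf1, which serves Sdhb, was at 1.203 ± 0.142 and 1.39 ± 0.318 FPKM.

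Assembly factors of the remaining complexes are given as group means with the SD, n = 3 each, control first. For complex I, Ndufaf4 was at 7.35 ± 1.15 and 5.83 ± 1.25 FPKM, Ndufaf1 at 6.01 ± 0.450 and 5.203 ± 0.221 FPKM and Acad9 at 7.98 ± 0.321 and 8.53 ± 1.12 FPKM. For complex III, Uqcc3 was at 4.36 ± 0.410 and 5.19 ± 0.671 FPKM, Lyrm7 at 2.52 ± 0.880 and 1.94 ± 0.225 FPKM and Uqcc1 at 19.7 ± 1.301 and 18.7 ± 1.45 FPKM. For ATP synthase, Atpaf2 was at 8.04 ± 1.42 and 6.66 ± 0.416 FPKM, Atpaf1 at 4.93 ± 0.623 and 4.11 ± 0.387 FPKM and Tmem242 at 8.503 ± 1.84 and 8.37 ± 0.649 FPKM. The adjusted p of these 9 genes ran from 0.706 to 0.997 in edgeR.

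Among electron carriers and genes of ubiquinone synthesis 11 of 19 were above 0 (median 0.06). Coq10a, a quinone-binding protein, was at 2.41, 2.34 and 3.17 FPKM in the control libraries and 1.72, 1.61 and 1.97 in the preeclampsia libraries, and its preeclampsia libraries were all below its controls, at a log2 fold change of -0.56 (SE 0.20, adjusted p = 0.483). Coq7, an enzyme of quinone synthesis, was at 1.18, 1.42 and 1.35 FPKM in the control libraries and 2.59, 1.75 and 1.53 in the preeclampsia libraries and all above, at 0.58 (SE 0.27, adjusted p = 0.587). Cycs, cytochrome c itself, was at 49.97, 59.9 and 54.8 FPKM in the control libraries and 55.9, 34.5 and 51.7 in the preeclampsia libraries. Its lowest value was in preeclampsia library 2, where subunit genes were highest, with a log2 fold change of -0.20 (SE 0.18, adjusted p = 0.812). In the tricarboxylic acid cycle with pyruvate dehydrogenase 7 of 18 were above 0 (median -0.03). Idh2, the mitochondrial NADP-dependent isocitrate dehydrogenase, was at 34.8, 29.6 and 27.3 FPKM in the control libraries and 55.5, 43.8 and 35.2 in the preeclampsia libraries. All its preeclampsia libraries were above its controls, with a log2 fold change of 0.56 (SE 0.20, adjusted p = 0.478). Suclg1, a subunit of succinyl-CoA ligase, stood at 7.12 ± 0.337 and 8.23 ± 0.891 FPKM in the 2 groups. Of the regulators of mitochondrial biogenesis 6 of 13 were above 0 (median -0.00, range -0.76 to 0.27). Those with the smallest p were Nrf1 at 0.27 (SE 0.18, adjusted p = 0.732) and Pprc1 at 0.25 (SE 0.18, adjusted p = 0.758). None of the genes of these 3 lists was called by edgeR or DESeq2. Groups did not overlap in FPKM in 4 of the 19 carrier and quinone genes (21.1%), 2 of the 18 cycle genes (11.1%) and 0 of the 13 regulators. Over all genes tested this share was 14.5%.

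The 13 messenger RNAs of the mitochondrial genome, partners of these subunits in complexes I, III, IV and V, all had a log2 fold change below 0 (median -0.24). ND6 and ND4L, subunits of complex I, had the smallest p, with log2 fold changes of -0.39 (SE 0.12, adjusted p = 0.470) and -0.30 (SE 0.11, adjusted p = 0.505). COX1, a catalytic subunit of complex IV, had the highest FPKM, at 3745, 3852 and 4463 FPKM in the control libraries and 3291, 3276 and 3291 in the preeclampsia libraries. Levels between these genes are uncertain, since the length implied by count and FPKM was above the locus for 12 of the 13 and 2.45 times the locus for COX1. The fold changes rest on the same counts, and whether reads were shared between these genes was not tested. None was called by edgeR or DESeq2, 2 of the 13 had an unadjusted p under 0.05, against 9.19% of all genes tested, and 5 of the 13 (38.5%) had groups that did not overlap in FPKM, against 14.5% of all genes. Set against each gene's mean, their medians were 0.18, 0.19 and -0.01 in the control libraries and -0.02, -0.20 and -0.15 in the preeclampsia libraries. The nuclear median minus the mitochondrial one was -0.34, -0.32 and 0.08 in the control and -0.00, 0.40 and 0.16 in the preeclampsia libraries on the log2 scale. Control library 3 lay above preeclampsia library 1 in this difference, so the groups overlapped.

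**Figure D4:**
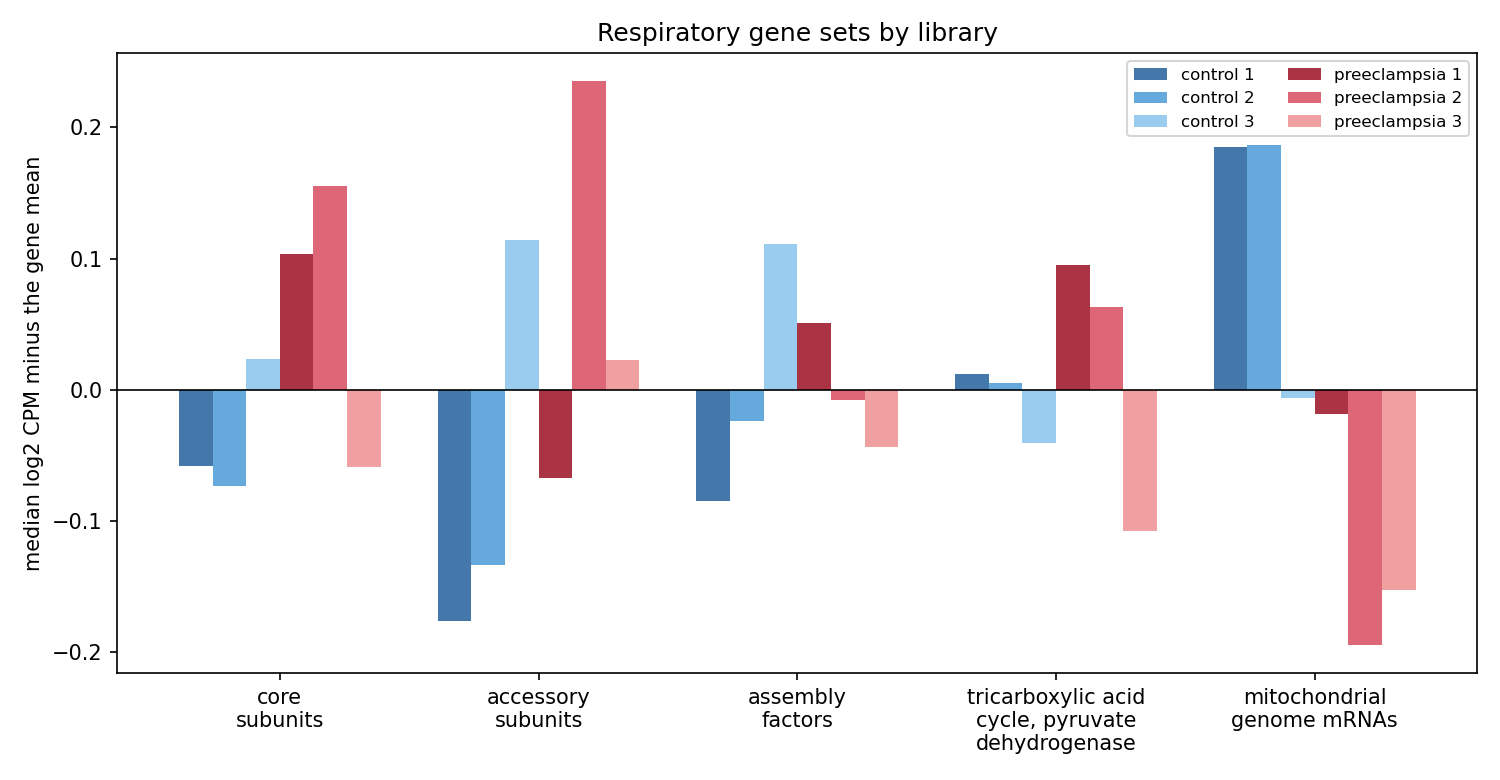
Median log2 CPM minus the gene mean (vertical axis) for core and accessory subunits, assembly factors, the tricarboxylic acid cycle with pyruvate dehydrogenase, and mitochondrial genome messenger RNAs; each bar is 1 library. Accessory subunits reach 0.24 in preeclampsia library 2, where mitochondrial genome messenger RNAs are at -0.20.

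Levels by FPKM spanned a wide range within each complex. The median member stood at 25.3 FPKM over the 6 libraries, and by complex at 23.9 in I, 29.9 in II, 12.2 in III, 21.7 in IV and 61.2 in V. The highest by complex were Ndufb8 (56.8), Sdha (80.0), Uqcrfs1 (56.7), Cox6a1 (97.5) and Atp5f1b (435), and 4 members were under 1 FPKM. These levels depend on the length behind each FPKM. The length implied by count, FPKM and library total was 10573 bases for Uqcr11 and 6415 for Uqcrb, above the 4712 and 5367 bases their loci span, 3502 for Cyc1 against 2378, and 501 for Cox7a2l2 against 444. The levels of these 4 genes against other genes are thus uncertain. A locus span includes introns, so a length too long for the messenger RNA can stay below it. Implied lengths were 4004 bases for Atp5f1a and 1517 for Atp5f1b, both under their loci. Levels of other genes, and the medians by complex, may thus be uncertain too. The edgeR fold changes rest on the deposited counts, and no length entered that fit. How those counts were made is not stated.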

How the data were processed

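Per the labels' protocols, RNA was enriched on oligo(dT) beads, copied with random primers and joined to UMI adapters; the use made of the UMIs is not stated. Tools listed in the submitters' processing notes, without roles, are StringTie 2.1.6, HISAT2 2.2.1, cutadapt 1.9 and FastQC. The authors deposited 1 table that holds, per the file headers, a count and an FPKM value for every gene in every library. The genome build is not named, but the table's sequence names are those of an assembly other than GRCr8. Gene coordinates are the table's, promoter windows are on GRCr8, and none were converted. The quasi-likelihood test of edgeR 4.0.16 (R 4.3.3) was run on these counts after filterByExpr and TMM scaling, fitting the group alone; p-values of 15776 genes were adjusted by Benjamini-Hochberg, and a call is an adjusted p under 0.05. Standard errors were derived from the log2 fold change and the test statistic of that fit, and intervals of 95% use them with a t distribution. Lists are described by counts and medians, with no test. Libraries held 48402185 to 59193961 counts; the floor of 3 counts covers counting error only. Members and lists were chosen with earlier results of these data known. Genes given in full were fixed core and alternative-form genes, the 2 smallest p and both extremes of each complex, and 2 smallest p and the highest FPKM of each list; Ndufs8, Ndufb6, Ndufb2, Ndufs5, Ndufa13, Ndufa13-ps1 and Ndufa10l1 were added with their values known. The values of 1 subunit gene and 1 gene of the other lists are not reported here; both stay in the counts and medians. Other settings were DESeq2 1.42.0, limma 3.58.1 on log2(FPKM + 1) and log2(FPKM + 0.1), other scalings, no filter, the replicate block and each library left out. Scripts were tested on simulated data.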

Additional observations from a re-analysis of the deposited data

How the results depend on the processing

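No subunit gene was called under any alternative run, and the median log2 fold change of the subunit genes stayed above 0, from 0.10 to 0.14 over other tests, scalings and filters and from 0.05 to 0.21 with a library left out. Genes above 0 numbered 64 to 74 and 54 to 77 in these. The complex III median reached -0.01 without preeclampsia library 2. Over all genes, calls were 0, with 302 by DESeq2, 1 by limma on log2(FPKM + 1) without a filter, and 0 to 2 with a library left out (1 without control library 3, 2 without preeclampsia library 1). With the replicate block edgeR called 0 genes, 1196 had an unadjusted p under 0.05 in place of 1450, and the subunit median was 0.13. Same-numbered libraries' deviations correlated at 0.05, 0.04 and 0.01. Control libraries 1 and 2 correlated best with the preeclampsia library of the same number, and control library 3 with preeclampsia library 2 (0.035). Correlations this near 0 cannot decide whether same-numbered libraries were paired. Of the 31 subunit genes chosen by the naming rule, 7 turned sign in at least 1 setting; among all subunit genes more did, as the 54 of 82 above 0 without preeclampsia library 2 show. Sdhb was at 0.0015 with DESeq2 size factors and 0.0018 with DESeq2. Cox5a was at -0.0172 with library totals only, at -0.0175 with limma on log2(FPKM + 1), with or without a filter, and at -0.0178 on log2(FPKM + 0.1). With a library left out, ranges were -0.0685 to 0.0763 for Cox5a, -0.12 to 0.28 for Cox6a1, -0.53 to 0.14 for Cox7a2l2, -0.0103 to 0.16 for Ndufa4, -0.0657 to 0.0814 for Ndufs1, -0.10 to 0.0551 for Sdhb and -0.0996 to 0.0117 for Uqcrc2. The share of Atp5mc3 differed by 0.11 percentage points, and by -1.13 to 1.64 with a library left out. The cause of these shifts was not tested.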

Other observations

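Subunit-related genes outside the name rule did not all share the direction of the members. Dmac2l, a factor associated with ATP synthase, was at 1.64, 2.23 and 2.05 FPKM in the control libraries and 1.48, 1.23 and 1.07 in the preeclampsia libraries, and all preeclampsia libraries were below the controls, with a log2 fold change of -0.62 (SE 0.24, adjusted p = 0.515). Ndufab1, the acyl carrier protein of complex I, was at 5.47, 6.34 and 7.69 FPKM in the control libraries and 7.22, 4.85 and 4.75 in the preeclampsia libraries, with a log2 fold change of -0.20 (SE 0.20, adjusted p = 0.837). Atp5if1, the inhibitor of ATP synthase, was at 57.8, 51.8 and 54.8 FPKM in the control libraries and 58.4, 70.5 and 49.7 in the preeclampsia libraries, with a log2 fold change of 0.14 (SE 0.18, adjusted p = 0.867). Groups thus did not overlap in 1 of these 3 genes, against 14.5% of all genes tested.

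The length implied by count, FPKM and library total was above the locus for 12 of the 13 messenger RNAs of the mitochondrial genome. It was 0.987 times the locus for ND5, and 38.1 times for ATP8, 14.3 times for ND1 and 6.66 times for COX2.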
